A study of Mus musculus with 5 samples.

Results

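The positions listed for the zinc finger and homeobox protein ZHX1 and for the RNA-binding protein hnRNPA1 in control cardiac progenitor cells were compared with each other. All peaks of the 2 control lists were taken, 23244 of ZHX1 and 14662 of hnRNPA1, which made 37906 of the 89451 peaks in the 3 lists of the series. Each peak was used as its position together with the gene name deposited beside it. A ZHX1 and an hnRNPA1 peak that overlapped by at least 1 bp were called an overlapping pair, and every other peak was assigned to ZHX1 alone or hnRNPA1 alone.

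The cells were CP (cardiac progenitor) cells differentiated from the mouse embryonic stem cell line 46C. Both libraries compared here came from the unedited control, 46C-Ctrl, and differed in the antibody, anti-ZHX1 or anti-hnRNPA1. The Zhx1-KO line and the input libraries of the series were not analysed here. There was 1 library per antibody and no replicate, so no test between the lists was made. The lists held positions and names with no score or read count, so the depth of each library was unknown, and expression markers of the progenitor state could not be checked.

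ZHX1 belongs to a small family of nuclear proteins with zinc fingers and homeodomains, first described as partners of the CCAAT-binding factor NF-Y, and is known mainly as a transcriptional repressor. hnRNPA1 is an abundant nuclear protein that binds RNA, with a preference for UAGGG-like motifs, and is known for its part in splice site choice and RNA export. Cardiac progenitors arise from mesoderm under Wnt, BMP, Nodal and FGF signals and express the heart field factors, among them Nkx2-5, Isl1 and members of the GATA and T-box families.

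From the 605 overlapping pairs, 10 stretches of shared sequence are shown as examples. The letters are those of GRCm38 on the plus strand, and the capitals mark the bases covered by a peak of both lists. A stretch longer than 300 bases is cut to the 300 around the shared part. The first set was taken from the pairs that stood near the top of both lists, a choice made after their line numbers were seen.
Txndc11, chr16:11143990-11144259: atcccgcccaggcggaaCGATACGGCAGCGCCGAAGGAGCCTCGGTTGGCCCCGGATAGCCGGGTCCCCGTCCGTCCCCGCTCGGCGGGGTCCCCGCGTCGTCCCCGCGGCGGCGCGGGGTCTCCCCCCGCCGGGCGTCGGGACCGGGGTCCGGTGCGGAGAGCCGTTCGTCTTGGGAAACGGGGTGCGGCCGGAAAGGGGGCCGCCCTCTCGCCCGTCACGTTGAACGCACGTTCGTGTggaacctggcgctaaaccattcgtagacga
Pex2, chr3:5860429-5860715: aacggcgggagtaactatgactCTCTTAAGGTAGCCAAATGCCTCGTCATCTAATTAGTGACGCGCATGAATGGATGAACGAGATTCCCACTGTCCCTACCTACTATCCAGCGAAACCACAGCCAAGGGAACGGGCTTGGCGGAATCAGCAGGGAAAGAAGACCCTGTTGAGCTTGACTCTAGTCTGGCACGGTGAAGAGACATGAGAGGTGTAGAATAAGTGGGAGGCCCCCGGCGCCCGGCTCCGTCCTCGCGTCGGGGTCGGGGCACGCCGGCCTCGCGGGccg
Cdk8, chr5:146261002-146261301: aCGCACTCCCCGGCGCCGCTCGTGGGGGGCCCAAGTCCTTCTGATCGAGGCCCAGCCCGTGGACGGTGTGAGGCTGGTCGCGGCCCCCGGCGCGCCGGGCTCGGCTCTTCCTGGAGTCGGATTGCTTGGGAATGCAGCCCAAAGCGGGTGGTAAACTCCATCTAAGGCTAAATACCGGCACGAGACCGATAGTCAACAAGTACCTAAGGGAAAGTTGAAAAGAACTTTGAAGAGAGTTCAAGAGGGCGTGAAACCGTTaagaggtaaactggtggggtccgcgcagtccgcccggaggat
Brox, chr1:183299198-183299497: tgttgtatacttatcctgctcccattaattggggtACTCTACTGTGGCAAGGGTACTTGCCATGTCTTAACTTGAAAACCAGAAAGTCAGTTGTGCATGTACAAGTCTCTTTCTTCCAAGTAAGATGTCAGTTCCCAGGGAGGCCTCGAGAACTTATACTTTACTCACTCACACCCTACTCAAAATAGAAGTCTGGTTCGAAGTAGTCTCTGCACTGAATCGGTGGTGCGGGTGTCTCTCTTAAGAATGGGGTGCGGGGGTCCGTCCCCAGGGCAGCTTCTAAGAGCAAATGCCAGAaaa
Cr2, chr1:195241609-195241851: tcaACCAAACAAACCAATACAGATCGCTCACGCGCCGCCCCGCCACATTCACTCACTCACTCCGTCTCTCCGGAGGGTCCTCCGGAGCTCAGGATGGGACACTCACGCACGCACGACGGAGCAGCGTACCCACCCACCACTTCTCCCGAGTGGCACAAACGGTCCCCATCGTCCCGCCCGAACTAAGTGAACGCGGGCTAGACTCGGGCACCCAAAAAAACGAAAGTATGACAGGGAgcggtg
Myom2, chr8:15519794-15520068: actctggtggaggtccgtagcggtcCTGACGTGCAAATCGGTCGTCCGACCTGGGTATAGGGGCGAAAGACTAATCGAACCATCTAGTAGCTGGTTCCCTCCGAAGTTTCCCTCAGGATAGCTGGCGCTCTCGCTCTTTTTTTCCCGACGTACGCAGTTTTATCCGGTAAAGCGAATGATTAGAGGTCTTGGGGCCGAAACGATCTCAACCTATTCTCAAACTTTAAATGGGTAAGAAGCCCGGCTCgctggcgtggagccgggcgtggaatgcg
The second set was taken from pairs named for developmental regulators of the gene lists described later.
Mef2c, chr13:83197480-83197779: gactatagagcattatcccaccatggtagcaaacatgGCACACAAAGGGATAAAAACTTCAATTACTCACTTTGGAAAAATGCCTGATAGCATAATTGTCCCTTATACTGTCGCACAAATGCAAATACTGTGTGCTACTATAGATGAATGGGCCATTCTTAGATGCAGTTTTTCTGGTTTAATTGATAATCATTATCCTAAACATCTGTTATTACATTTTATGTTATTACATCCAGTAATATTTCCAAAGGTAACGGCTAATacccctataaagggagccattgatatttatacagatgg
Foxa2, chr2:148044346-148044645: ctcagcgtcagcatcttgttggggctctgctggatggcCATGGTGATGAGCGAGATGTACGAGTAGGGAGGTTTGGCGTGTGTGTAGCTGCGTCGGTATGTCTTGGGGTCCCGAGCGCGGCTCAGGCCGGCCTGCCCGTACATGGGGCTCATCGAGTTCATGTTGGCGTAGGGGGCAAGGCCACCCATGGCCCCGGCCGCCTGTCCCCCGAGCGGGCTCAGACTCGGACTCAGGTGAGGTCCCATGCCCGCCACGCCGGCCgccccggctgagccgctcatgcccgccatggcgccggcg
Sall4, chr2:168806732-168807031: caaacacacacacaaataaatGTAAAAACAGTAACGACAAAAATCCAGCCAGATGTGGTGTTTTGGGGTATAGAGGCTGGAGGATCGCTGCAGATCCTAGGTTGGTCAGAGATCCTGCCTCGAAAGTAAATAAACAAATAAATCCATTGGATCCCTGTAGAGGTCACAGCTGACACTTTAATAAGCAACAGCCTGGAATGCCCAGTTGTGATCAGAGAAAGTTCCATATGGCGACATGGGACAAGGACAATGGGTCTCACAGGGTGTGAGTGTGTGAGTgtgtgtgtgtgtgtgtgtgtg
Bcl11b, chr12:108005287-108005582: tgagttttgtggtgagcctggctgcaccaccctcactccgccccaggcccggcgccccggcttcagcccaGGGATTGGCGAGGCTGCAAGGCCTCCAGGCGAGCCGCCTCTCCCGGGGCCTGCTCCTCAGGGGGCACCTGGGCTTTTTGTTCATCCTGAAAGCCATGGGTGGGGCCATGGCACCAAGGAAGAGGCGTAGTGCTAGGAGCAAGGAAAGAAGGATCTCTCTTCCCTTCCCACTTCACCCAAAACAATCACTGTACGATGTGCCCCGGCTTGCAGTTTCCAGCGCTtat
The Txndc11 stretch overlapped a transcription start site, had a GC content of 73.3% and held 44 CpG dinucleotides. The Pex2, Cdk8, Cr2 and Myom2 stretches held 23 to 29 CpG and were 54.2% to 61.5% GC. The Mef2c stretch was AT-rich at 34.8% GC, lay entirely in sequence soft-masked as repeat, and its 32-base words occurred a median of 58 times in the genome for the ZHX1 peak and 97 times for the hnRNPA1 peak. The Foxa2, Sall4 and Bcl11b stretches were at 1 copy, and the stretch named for the endoderm factor Foxa2, in a coding exon, had a GC content of 65.5%.

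Most positions of the 2 proteins were apart. Overlap was found for 605 ZHX1 peaks, 2.60% of that list (95% Wilson interval 2.41 to 2.82), and for 604 hnRNPA1 peaks, 4.12% of theirs (3.81 to 4.45). The intervals here and later cover counting error only. How often positions spread evenly along the genome would touch either list was not computed. Whether the 2 lists met more or less often than such positions was therefore not tested, and the low shares do not show that the lists avoid each other. ZHX1 alone held 22639 peaks and hnRNPA1 alone held 14058. Among peaks that did not overlap, the nearest peak of the other list was a median of 49.8 kb away from a ZHX1 peak and 30.9 kb away from an hnRNPA1 peak. Close neighbours without contact were also few, with 533 ZHX1 peaks (2.29%) and 504 hnRNPA1 peaks (3.44%) within 1 kb of the other protein. The 4 ZHX1 peaks on the mitochondrial chromosome had no hnRNPA1 peak there.

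**Figure D1:**
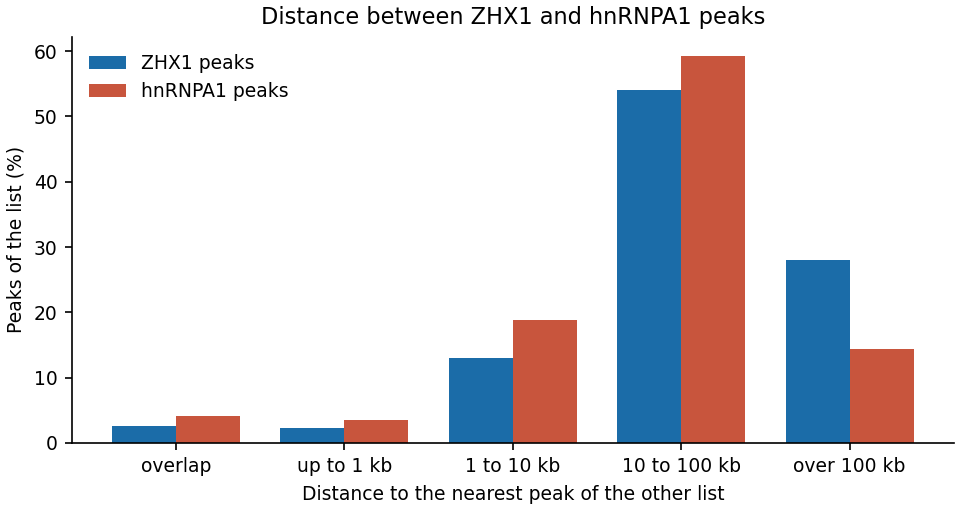
Share of each control list (vertical axis, percent of peaks) by the distance to the nearest peak of the other list (horizontal axis). The tallest bars of both lists stand at 10 to 100 kb, with 54.0% of ZHX1 and 59.3% of hnRNPA1 peaks, and the overlap bars stand at 2.60% and 4.12%.

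Where the lists did meet, the peaks mostly lay on top of each other. The 605 pairs shared a median of 223 bp, between 1 and 770 bp, and in 494 pairs (81.7%) at least 50% of the shorter peak was covered. The centres were a median of 68.5 bp apart, and 241 pairs (39.8%) had them within 50 bp. The widest shared position, 1048 bp on chromosome 1 and named for the monocarboxylate transporter gene Slc16a14, whose curated start site was 59.3 kb away, also held the longest common stretch, 770 bp. Next in width came positions named for Tmem181b-ps (974 bp), the ubiquitin ligase adaptor Dcaf11 (920 bp), the DNA- and RNA-binding translin gene Tsn (920 bp) and the Ras regulator Rasa1 (895 bp). The 10 widest were completed by the spliceosomal gene Snrpe (878 bp), the pheromone receptor Vmn2r89 (874 bp), 4930555G01Rik (849 bp), Fam172a (820 bp) and D430036J16Rik (820 bp).

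Contact was looser in pairs whose sequence was counted less than 2 times in the assembly. The copy number of a peak was the median number of times its 32-base words occurred on the assembled chromosomes, and peaks at 2 or more were called multi-copy. In the 208 pairs below 2 copies in both lists, the median overlap was 175.5 bp and 138 pairs (66.3%) covered 50% of the shorter peak, against 228 bp and 356 pairs (89.7%) among the other 397. Several of the widest positions below 2 copies were 2 peaks touching at their ends, which a choice by union width favours in any copy class. The multi-copy position of Snrpe, 878 bp wide, had 73 bp in common. Bahcc1, a chromatin gene, had a union of 819 bp with 35 bp in common, and the zinc finger gene Patz1 had 747 bp with 75 bp. The septin gene Sept9 had 745 bp with 83 bp in common, and the melanocortin receptor gene Mc2r had 702 bp with 1 bp. Olfr412 (710 bp) and 1700003L19Rik (784 bp) were also among the widest of this class, with Dcaf11, Vmn2r89 and D430036J16Rik from above. Each of the 208 pairs had the same gene name in both lists, as did 384 of the 397 others.

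Peak width had its own step. Both lists had a floor, 228 bp for ZHX1 and 223 bp for hnRNPA1, at which 8456 (36.4%) and 4938 (33.7%) of the peaks lay. Peaks at the floor overlapped the other list in 1.37% of cases for ZHX1 and 2.39% for hnRNPA1, and wider ones in 3.31% and 5.0%. The medians of the whole lists were 259 and 257 bp.

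Shared positions were concentrated at the top of both deposited lists. The lines followed neither position nor width (Spearman's rho of line number with width was -0.00992 for ZHX1 and 0.0113 for hnRNPA1, over all peaks of each list), and what they followed is not given in the sources used here. Of the first 20 ZHX1 lines, 13 overlapped hnRNPA1, and of the first 20 hnRNPA1 lines, 18 overlapped ZHX1. The count was 46 of the first 100 in either list. Over the first 1000 lines 120 ZHX1 and 150 hnRNPA1 peaks overlapped, and after them 2.18% and 3.32% did. Across the 605 pairs, rho of the 2 line numbers was 0.389, given as a description, since the pairs share sequence copies and nearby positions. It was 0.135 in the 208 pairs below 2 copies.

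**Figure D2:**
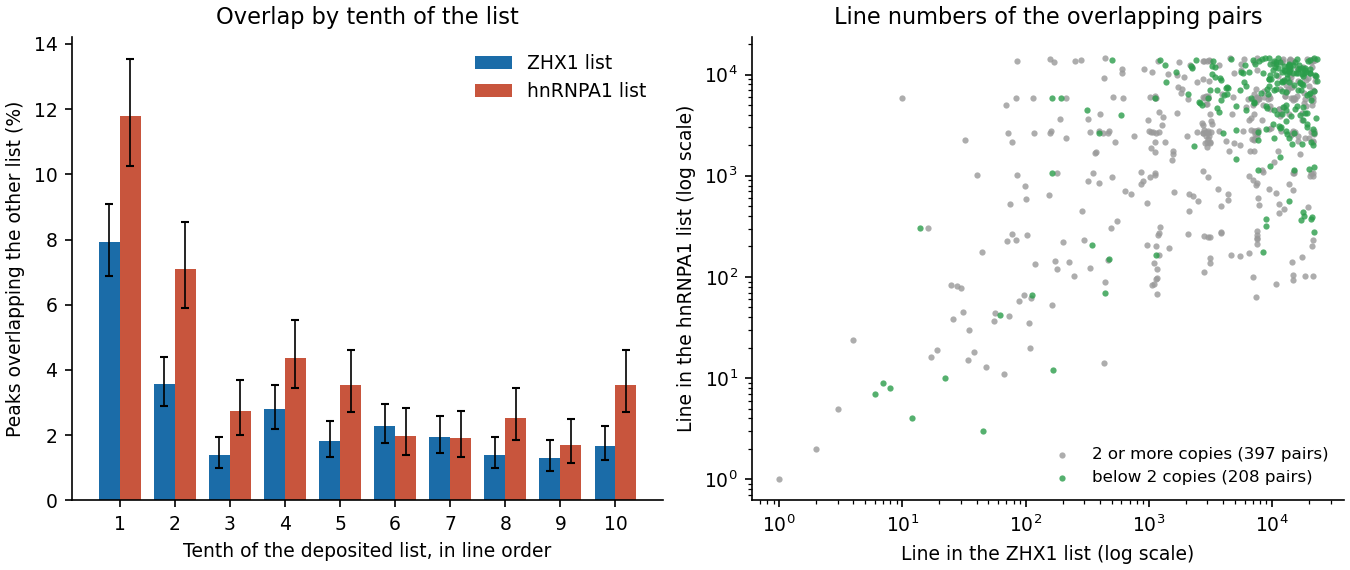
Left, share of peaks that overlap the other list (percent, bars with 95% Wilson intervals) in each of 10 equal blocks of the deposited lines; right, the 605 pairs by their line numbers in both lists (log scales), with 208 below 2 copies in green and 397 others in grey. The first block holds 7.91% for ZHX1 and 11.8% for hnRNPA1, and 28 pairs lie within the first 100 lines of both lists.

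There were 9 pairs within the first 20 lines of both lists, named here after their line numbers were seen. The pair at line 1 of both lists was named Txndc11, an endoplasmic reticulum redox protein, and the pair at line 2 of both was named Pex2, a peroxisome biogenesis gene, at 20.5 kb from the nearest annotated start site. Filip1l stood at lines 3 and 5 of the ZHX1 and hnRNPA1 lists, the Mediator kinase gene Cdk8 at lines 6 and 7, and Satl1, on the X chromosome, at lines 7 and 9. Brox held line 8 in both. The complement receptor gene Cr2 followed at lines 12 and 4, the olfactory receptor gene Olfr161 at 17 and 16, and the autophagy gene Atg7 at line 19 of both. The sarcomere gene Myom2, a member of the lists described later, stood at lines 48 and 13 with a position at 11 copies. In the first 20 lines without a partner were ZHX1 peaks named Mir101c (lines 5 and 20), the Wnt feedback gene Axin2 (line 9), P4ha2 (line 11), Cldn34d (line 13), Limd1 (line 15) and Gm3636 (line 18), and an hnRNPA1 peak named Frmpd1 (line 17) together with 1 unnamed peak at line 6.

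The top lines were also rich in repeated sequence. In each list 83 of the first 100 peaks were multi-copy, against 25.2% of all ZHX1 and 24.4% of all hnRNPA1 peaks. Among the 17 peaks of the first 100 that were below 2 copies, 8 of ZHX1 and 10 of hnRNPA1 overlapped the other list. This class is not free of repeats, since only assembled copies were counted, and it included Cdk8, Cr2 and, with ribosomal RNA sequence, Gm8579 in both lists and Rn45s in the ZHX1 list. Without the first 500 lines of both lists, an alternative chosen after seeing the data, the hnRNPA1 share was 3.15% and the ZHX1 share 1.97%.

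Some of the top positions lay in ribosomal RNA sequence. The locus on chromosome 17 that carries the deposited name Rn45s (39843013 to 39848788, GRCm38) encodes part of the ribosomal RNA precursor. It held 3 ZHX1 and 2 hnRNPA1 peaks, with pairs at lines 14 and 307 and at lines 165 and 1061, and a ZHX1 peak of 3266 bp, the widest of either list, at line 134. Away from it, the pair named Gm8579 on chromosome 6 (lines 22 and 10) had 51.7% of the 20-base words of its ZHX1 peak and 53.3% of those of its hnRNPA1 peak in that locus. On chromosome 8, where 5S ribosomal RNA genes are repeated, 20% or more of the words of 3 ZHX1 peaks, named Rhou (line 52), Gm23284 and Gm22109, matched annotated genes of type rRNA, and the Gm22109 peak was shared. These names were chosen by the word match. The copy number counts only assembled copies, so Rn45s and Gm8579 stood at 1 copy. The printed stretches of Txndc11, Pex2, Cdk8, Cr2 and Myom2 resemble the ribosomal repeat, 28S included, by eye. A whole repeat was not used here, so that likeness was not tested, and the deposited names of these positions give the nearest gene and not what the sequence is.

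Sharing varied with how often a sequence is repeated in the genome. Of the hnRNPA1 peaks below 2 copies, 215 of 11078 overlapped ZHX1 (1.94%, 1.70 to 2.21). At 2 to 9 copies it was 144 of 1073 (13.4%, 11.5 to 15.6), and at 10 to 99 copies 116 of 735 (15.8%, 13.3 to 18.6). At 100 or more copies it was lower again, 129 of 1776 (7.26%, 6.15 to 8.57). The ZHX1 list had the same shape, at 1.25%, 8.35%, 9.27% and 4.38%. Shared multi-copy peaks thus had fewer copies than unshared ones, with a median of 17 against 132 for hnRNPA1 and 19.5 against 98 for ZHX1, beside 60 for multi-copy windows of 250 bp spaced evenly along the genome. At least 50% of the bases were soft-masked in 68.4% of the shared and 80.7% of the other multi-copy hnRNPA1 peaks.

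**Figure D3:**
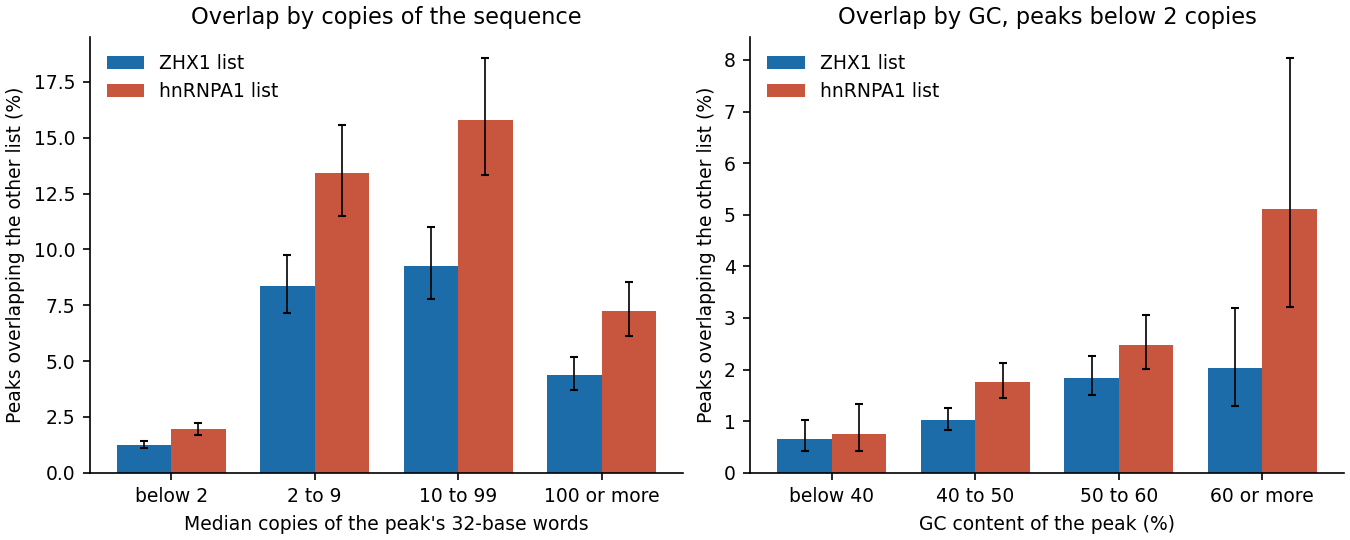
Share of peaks that overlap the other list (percent, bars with 95% Wilson intervals) by the median copies of the peak's 32-base words (left) and, for peaks below 2 copies, by GC content (right). Sharing is highest at 10 to 99 copies, with 9.27% of ZHX1 and 15.8% of hnRNPA1 peaks, and rises with GC from 0.750% to 5.12% for hnRNPA1.

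Below 2 copies, sharing went with GC content and with start sites. The hnRNPA1 share rose from 0.750% of peaks under 40% GC through 1.75% and 2.48% to 5.12% (17 of 332, 3.22 to 8.05) at 60% GC or more, and the ZHX1 share rose from 0.662% to 2.04%. Of the 215 shared hnRNPA1 peaks in that class, 56 lay within 2 kb of an annotated start site (26.0%, 20.6 to 32.3), against 16.7% (16.0 to 17.4) of those alone and 12% of genome windows. For ZHX1 the shares were 26.3% and 18.7%. Dcaf11, 0.244 kb from an annotated start site, and Bahcc1, 0.067 kb away, were examples. Their curated RefSeq start sites stood 5.2 kb and 3.6 kb away. Introns held 50.2% of the shared and 48.5% of the other hnRNPA1 peaks below 2 copies, and 44.5% of the windows.

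Short motifs associated with each protein were counted in the shared peaks, the others and the genome windows. TAGGG, the DNA form of the hnRNPA1 RNA motif, was looked for on both strands in the central 200 bases. It was present in 26.8% of shared hnRNPA1 peaks (23.4 to 30.5), 27.1% of hnRNPA1 alone, 24.1% of shared ZHX1 peaks, 25.7% of ZHX1 alone and 24.4% of genome windows. CCAAT, the box bound by NF-Y, was present in 24.7% of shared and 27.3% of other hnRNPA1 peaks, in 27.9% and 27.3% of ZHX1 peaks, and in 29.4% of windows. Among hnRNPA1 peaks below 2 copies it was present in 16.3% of the shared (11.9 to 21.8), 24.9% of the others and 27.3% of windows. The ZHX1 peaks of the same class did not show that gap between shared and other peaks, at 23.0% (17.9 to 29.1) and 24.8%. At 2 or more copies CCAAT was present in 29.3% of shared hnRNPA1 and 30.7% of shared ZHX1 peaks, against 39.2% of multi-copy windows. Over all copy numbers TAGGG was thus above its share of the windows in hnRNPA1 alone and, by less, in ZHX1 alone (25.1 to 26.3). Below 2 copies TAGGG was present in 27.4% of hnRNPA1 alone (26.6 to 28.3) and 26.0% of ZHX1 alone (25.3 to 26.7), against 23.8% of windows. The shared peaks of that class stood at 27.9% for hnRNPA1 and 26.3% for ZHX1, with wider intervals that held the share of the windows. At 2 or more copies TAGGG was present in 26.1% of hnRNPA1 alone and 24.8% of ZHX1 alone, against 27.2% of windows. CCAAT was below its share of the windows in several classes. Sharing below 2 copies also went with GC content, and the part of base composition in these shares was not tested.

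Most shared positions stood by themselves, and a minority came in clusters. They formed 478 runs when joined across up to 100 kb, of which 415 held 1 pair and 26 held 3 or more, with 116 pairs (19.2%) in those. The run with the most pairs, 7 over 80.9 kb at the end of chromosome Y (90738967 to 90819901), was named G530011O06Rik and Erdr1. Another 5 runs held 6 pairs each. On chromosome 14 they spanned 258 kb at Gm5796 and 2610042L04Rik (4085067 to 4343159) and 192 kb at Gm3383 and LOC100861615 (5987192 to 6179640). On chromosome 8 they spanned 220 kb at Gm21119 and 6820431F20Rik, 121 kb at 6820431F20Rik and Gm15319, and 158 kb at 2610005L07Rik and Gm21119. All 30 pairs of these 5 runs, and 6 of the 7 on Y, were multi-copy. Chromosome 14 held the most shared peaks, 73 (9.22% of its hnRNPA1 peaks), followed by chromosome 1 with 54 (5.44%) and chromosome 8 with 49 (6.19%). The share was higher on X, with 18 of 164 (11%), and on Y, with 8 of 29 (27.6%), and it was 1.32% on chromosome 19, with 5.

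Several names led both lists by their number of peaks, and most of these were gene models with little known function. 5730507C01Rik had 53 ZHX1 and 30 hnRNPA1 peaks, 4 of them shared positions, and 1700030C10Rik had 40 and 19 with 2 shared. Mir6388, in a stretch of chromosome 12, had 28 and 24 with 5 shared. Gm21119 (26 and 21) and 2610042L04Rik (24 and 20) each had 7 shared positions, and Gm3264 and Gm3383 each had 23 and 15 with 4 shared. G530011O06Rik had 22 and 12, with 6 shared. Among the 10 names with the most hnRNPA1 peaks were also LOC100861615 (26), 2410018L13Rik (23), Gm4425 (20) and Gm3636 (19). Gm10377, Gm4425 and Olfr161 each had 20 ZHX1 peaks. An exception was the RNA-binding splicing regulator gene Celf2, with 21 ZHX1 and 4 hnRNPA1 peaks and no shared position in a territory of 1536 kb. The territory of a gene is the part of the chromosome that lies nearer to its start site than to that of any other curated RefSeq gene.

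The gene families with the highest shares of overlap were ones rich in repeated sequence. Vomeronasal receptors, which detect pheromones, had 19 of 146 hnRNPA1 peaks shared (13.0%, 8.49 to 19.4), and 71.2% of these 146 were multi-copy. Vmn2r45 (14 ZHX1 and 2 hnRNPA1 peaks), Vmn2r47 (11 and 4), Vmn1r238 (8 and 4) and Vmn1r2 (5 and 5) each held 1 shared position. Olfactory receptors had 9 of 160 shared (5.62%, 2.99 to 10.3), 4 of them at Olfr161 (20 and 13 peaks). Genes named Zfp, mostly KRAB-type zinc finger repressors in clusters, had 14 of 194 (7.22%), among them Zfp991 (8 and 4), Zfp980 (8 and 3), Zfp960 (6 and 4) and Zfp600 (8 and 1). Small nucleolar RNA genes had 5 of 18 (27.8%), with 3 at the imprinted, brain-expressed Snord64, whose positions stood at lines 4 and 24, 34 and 15, and 644 and 702.

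**Figure D4:**
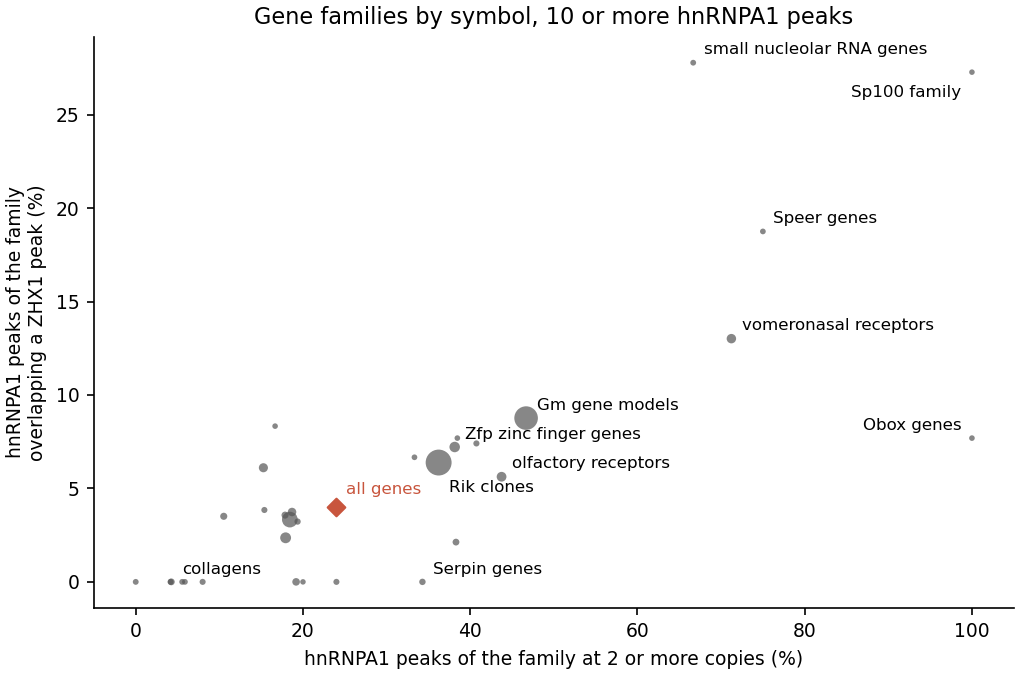
Gene families with at least 10 hnRNPA1 peaks, by the percent of these peaks at 2 or more copies (horizontal axis) and the percent that overlap a ZHX1 peak (vertical axis); point area grows with the number of hnRNPA1 peaks and the diamond is all genes (24.0% and 4.03%). Of the 32 families drawn, 10 had no shared peak and 4 had over 10%.

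Smaller families stood at both ends. The Sp100 family, of nuclear body proteins, had 3 of 11 hnRNPA1 peaks shared (27.3%), each at Sp110 (14 ZHX1 and 10 hnRNPA1 peaks) on chromosome 1. Zscan4 genes, active in the early embryo, had 2 of 7, and the testis-expressed Speer genes had 3 of 16. MicroRNA genes had 17 of 510 (3.33%), near the share of all genes. Collagen genes, which build the matrix, had 0 of 47, though 34 of the 44 were named by ZHX1 (77.3%, all genes 41.0%) and 30 by hnRNPA1 (68.2%, all genes 32%). The median territory of the collagen genes was 128 kb, against 42.9 kb over all genes. No shared position was named for Sox genes (0 of 19), semaphorins (0 of 17), integrins (0 of 25), keratins (0 of 18) or Hox genes (0 of 5). It was also 0 of 73 for the coiled-coil Ccdc genes (19.2% multi-copy) and 0 of 35 for the protease inhibitor Serpin genes, although 34.3% of the Serpin peaks were multi-copy. All of these counts are small beside a background share of 4.03%, and the upper Wilson limit for the 73 Ccdc peaks was 5.0%.

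Sharing by gene name was far wider than sharing by position. The ZHX1 list held 10872 names and the hnRNPA1 list 8495, and 5526 occurred in both, which is 50.8% of the ZHX1 and 65.1% of the hnRNPA1 names. Overlapping pairs carried 494 names, and 8.85% of the names in both lists held a pair. For 5037 names in both lists there was none. The nearest ZHX1 and hnRNPA1 peaks of 1 name were a median of 13.7 kb apart where they did not touch. They were within 1 kb for 409 names (7.40%), 1 to 10 kb for 1708 (30.9%), 10 to 100 kb for 2623 (47.5%) and over 100 kb for 310 (5.61%).

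The deposited name mostly gave the gene whose start site was nearest, which held for 91.2% of ZHX1 and 90.8% of hnRNPA1 peaks against curated RefSeq genes. Of 26180 such genes, ZHX1 peaks named 41.0%, hnRNPA1 peaks 32% and both lists 20.8%. ZHX1 alone named 20.1% and hnRNPA1 alone 11.2%, and overlapping pairs named 1.84%. Genes named by both lists had a median territory of 138 kb, those with an overlapping pair 120 kb and those with neither name 25.3 kb, against 42.9 kb over all genes. Genes with wide territories were thus named more often by either list, and this bears on each gene list that follows. The shares of a list are to be read against those of all genes and against its median territory.

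**Figure D5:**
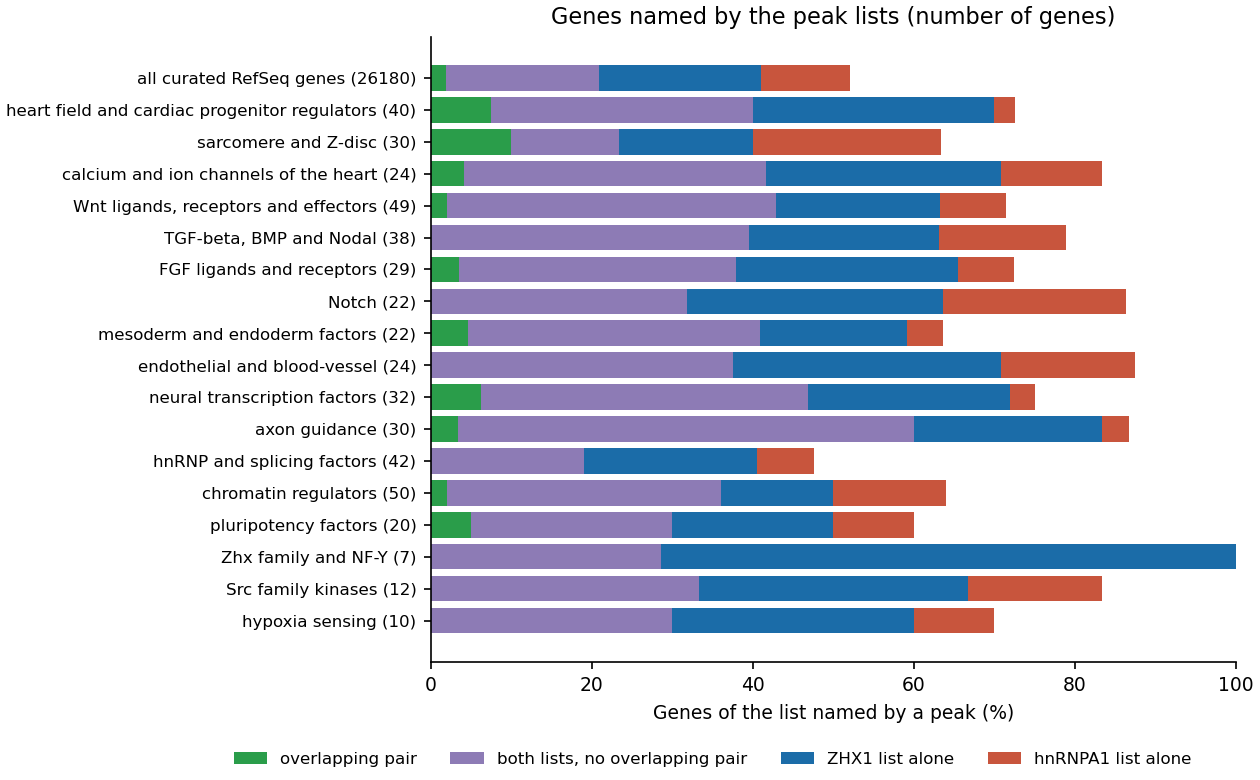
Percent of the genes of each list (horizontal axis, number of genes in brackets) named by an overlapping pair, by both lists without a pair, by ZHX1 alone or by hnRNPA1 alone. Green segments cover 1.84% of all curated genes and 3 of the 40 heart field genes.

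Among 40 heart field and cardiac progenitor regulators, 28 were named by ZHX1, 17 by hnRNPA1 and 16 by both. The named genes were thus mainly in ZHX1 alone (12 genes, 30.0% of the 40) or in both lists, with 1 gene in hnRNPA1 alone (2.50%). The backgrounds were 20.1%, 20.8% and 11.2%, and the median territory of the list was 90.8 kb. Neither list named 11 of the 40 (27.5%, all genes 47.9%). ZHX1 alone held Nkx2-5, the early cardiac homeobox gene, with 5 peaks, the GATA factor genes Gata4 (1 peak) and Gata6 (3 peaks), and the second heart field gene Tbx1 (1 peak). Gata5 was the gene of hnRNPA1 alone, with 1 peak. In both lists without contact were Isl1, the second heart field marker (2 ZHX1 peaks and 1 hnRNPA1 peak, nearest 13.9 kb apart), Tbx5 (1 and 1, 22.0 kb), Hand1 (4 and 2, 17.4 kb) and Tbx18 of the sinus horn and epicardium (2 and 3, 61.1 kb).

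Overlapping pairs were named for 3 of the 40 heart field genes (7.50%, all genes 1.84%), and 1 of the 3 had a pair below 2 copies. Of these genes, Mef2c, the myogenic MADS-box factor gene, had the AT-rich multi-copy stretch printed above, at lines 872 and 838. It lay between genes on chromosome 13 (83197480 to 83197779 printed), 7.90 kb from the nearest annotated start site and 306 kb from the curated start of Mef2c itself. Mesp2, a mesoderm factor gene, had a pair in an intron at 14 copies, 2.44 kb from a start site. The remaining gene was the zinc finger factor gene Sall4, which is also a pluripotency factor gene. The closest approach without contact in the list was at Irx5, an Iroquois homeobox gene, named here for its distance of 69 bp.

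Sarcomere and Z-disc genes were named by ZHX1 near its share of all genes and by hnRNPA1 above its share. Of 30 genes, ZHX1 named 12 (40%, all genes 41.0%) and hnRNPA1 named 14 (46.7%, all genes 32%). hnRNPA1 alone held 7 (23.3%, background 11.2%) and ZHX1 alone 5 (16.7%, background 20.1%), with a median territory of 41.5 kb. hnRNPA1 alone held the myosin genes Myh7, Myl4 and Myl7 and the M-band gene Myom1, with 1 peak each. ZHX1 alone held the ventricular light chain gene Myl2 (1 peak), the Z-disc gene Actn2 (2), the myosin-binding Mybpc3 (1) and Ldb3 (1). In both lists apart from each other were the troponin gene Tnnt2 (1 and 4 peaks, 6.16 kb), Csrp3 (1 and 1, 3.42 kb) and Xirp2 (1 and 1, 145 kb). Overlapping pairs were named for Nebl (556 and 625 copies), Ttn, where a 9 bp contact joined 2 peaks at 1 copy, and Myom2, whose stretch at 11 copies lay 462 kb from the curated Myom2 start site. These were 3 of the 30 genes (10.0%, all genes 1.84%), and 1 of the 3 had a pair below 2 copies.

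Calcium and ion channel genes of the heart were named by ZHX1 in 17 of 24 cases (70.8%, all genes 41.0%), by hnRNPA1 in 13 (54.2%, all genes 32%) and by both in 10 (41.7%, all genes 20.8%), with a median territory of 146 kb against 42.9 kb. The L-type channel gene Cacna1c had 4 ZHX1 and 3 hnRNPA1 peaks that came within 0.481 kb, and the T-type gene Cacna1g had 1 and 2 within 0.298 kb. The ryanodine receptor gene Ryr2 had 1 and 4 at 121 kb, and the sodium-calcium exchanger gene Slc8a1 had 3 and 3 at 5.46 kb. ZHX1 alone held Cacnb2 (2 peaks), the calcium pump gene Atp2a2 (2), the calsequestrin gene Casq2 (4) and the pacemaker channel gene Hcn2 (2). hnRNPA1 alone held Cacna1d, Cacna2d2 and Kcnd3, with 1 peak each. The overlapping pair was named for the potassium channel gene Kcnd2, in sequence at 8857 copies in the ZHX1 peak and 9844 in the hnRNPA1 peak.

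Among 49 Wnt pathway genes, with a median territory of 96.3 kb, 31 were named by ZHX1 (63.3%), 25 by hnRNPA1 (51.0%) and 21 by both (42.9%), against 41.0%, 32% and 20.8% of all genes. The receptor gene Ror1 had an overlapping pair (1 of 49, 2.04%, all genes 1.84%), at 10276 copies in the ZHX1 peak and 12236 in the hnRNPA1 peak. Wnt3a, a ligand of mesoderm induction, had 4 and 2 peaks that came within 2.45 kb, Wnt4 had 2 and 1 within 3.48 kb, Wnt2b had 1 and 1 within 6.50 kb, and Wnt2, of the early heart, had 3 and 1 at 30.7 kb. The ligand genes Wnt3, Wnt7b and Wnt9b (1 peak each) and Wnt5b (6 peaks) were in ZHX1 alone. Wnt8a (1), Wnt10a (2) and the receptor genes Fzd5 (1) and Fzd7 (2) were in hnRNPA1 alone.

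Of 38 TGF-beta, BMP and Nodal genes, with a median territory of 99.1 kb, 24 were named by ZHX1 (63.2%), 21 by hnRNPA1 (55.3%) and 15 by both (39.5%), against 41.0%, 32% and 20.8% of all genes. None had an overlapping pair, which 1.84% of all genes had. The ligand genes Bmp6 (3 and 2 peaks, 4.71 kb), Tgfb3 (1 and 3, 9.30 kb), Tgfb2 (1 and 1, 40 kb) and Bmp5 (2 and 1, 133 kb) were in both. Bmp4 (2 peaks), Nodal (3), Gdf1 (1) and the receptor gene Tgfbr2 (1) were in ZHX1 alone. Tgfb1 (1), the activin subunit gene Inhba (3), the receptor gene Tgfbr1 (1) and Smad9 (1) were in hnRNPA1 alone. Smad7, an inhibitor of the pathway named here for its distance, had peaks 219 bp apart.

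Of 29 FGF genes, with a median territory of 118.5 kb, 19 were named by ZHX1 (65.5%), 13 by hnRNPA1 (44.8%) and 11 by both (37.9%), beside the same shares of all genes. Fgf10, a second heart field ligand gene, had 5 and 1 peaks 48.3 kb apart, Fgf9 had 2 and 4 at 26.9 kb, Fgf7 was at 10.3 kb and Fgf1 at 6.62 kb. Fgf3, Fgf4 and Fgf5 (1 peak each) and Fgf14 (5) were in ZHX1 alone, and Fgf16 (1) and the inhibitor gene Spred1 (2) were in hnRNPA1 alone. The receptor gene Fgfr2 had an overlapping pair at 1 copy in an intron, with 157 bp in common.

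Of 22 Notch genes, with a median territory of 41.3 kb, 14 were named by ZHX1 (63.6%, all genes 41.0%), 12 by hnRNPA1 (54.5%, all genes 32%) and 7 by both (31.8%, all genes 20.8%). None had an overlapping pair, beside 1.84% of all genes. Notch2, Notch4, Dll1 and Dll3 were in ZHX1 alone, while the ligand gene Dll4 (1 peak) and all of the Hey family, Hey1 (1), Hey2 (4) and Heyl (3), transcriptional targets of Notch, were in hnRNPA1 alone. Notch3 (1 and 1 peaks, 19.5 kb), Jag1 (4 and 1, 45.1 kb), Rbpj (2 and 2, 11.1 kb) and Maml2 (1 and 2, 24.5 kb) were in both. Of the other targets, named here after their classes were seen, Hes1 (2 peaks) and Hes5 (1) were in ZHX1 alone.

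Other germ layers had a like mixture of classes. Of 22 mesoderm and endoderm factors, 13 were named by ZHX1 (59.1%), 10 by hnRNPA1 (45.5%) and 9 by both (40.9%), against 41.0%, 32% and 20.8% of all genes, and their median territory was 54.3 kb. In both lists were Mixl1 (3 and 1 peaks, 7.45 kb), Gsc (4 and 1, 4.60 kb), Foxc1 (3 and 2, 25.4 kb) and Foxf1 (1 and 1, 1.65 kb). Eomes, Foxa1 and Hhex were in ZHX1 alone and Foxc2 in hnRNPA1 alone. Foxa2 had the coding-exon stretch printed above, 0.946 kb from a start site. Of 24 endothelial genes, with a median territory of 94.4 kb, 17 were named by ZHX1 (70.8%), 13 by hnRNPA1 (54.2%) and 9 by both (37.5%), with no pair. The angiopoietin receptor relative Tie1 (1 and 3 peaks, 1.14 kb) and the VEGF receptor gene Kdr (3 and 1, 1.62 kb) came closest of the first members, then Cdh5 (6 and 2, 15.4 kb) and Tek (2 and 1, 42.1 kb). Flt1 (4 peaks), Flt4 (1), Fli1 (1) and Tal1 (4) were in ZHX1 alone, and Pecam1 (1), Vwf (1), Egfl7 (4) and Angpt2 (2) in hnRNPA1 alone.

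Neural transcription factor genes, with a median territory of 102 kb, were named by ZHX1 in 23 of 32 cases (71.9%, all genes 41.0%), by hnRNPA1 in 16 (all genes 32%) and by both in 15 (46.9%, all genes 20.8%). The 8 in ZHX1 alone included Sox1 (2 peaks), Pax6 (2), Otx2 (1) and En1 (3), and hnRNPA1 alone held Neurog2. Pax2 (3.98 kb), Pax3 (4 and 1 peaks, 22.7 kb), Pax7 (11.1 kb) and Neurog1 (5.12 kb) had peaks of both proteins apart from each other. Overlapping pairs were named for Zic1, at 89.5 and 106 copies, and for Bcl11b, whose stretch at 1 copy is printed above and lay 1.83 kb from a start site. Axon guidance genes, whose median territory was 340 kb, were the list most often named by both, 18 of 30, against 20.8% of all genes. Slit3 (7 and 5 peaks) came within 39 bp without contact and Slit2 (4 and 2) within 0.740 kb, whereas Robo2 (6 and 1) had its nearest peaks 343 kb apart and Dcc (3 and 6) 13.6 kb. Robo1 (2), Ntn1 (2), Unc5a (4) and Unc5b (1) were in ZHX1 alone and Slit1 (2) in hnRNPA1 alone. The pair of that list was named for Unc5d, at 3951 and 3934 copies.

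Genes of hnRNPs and splicing factors, the functional class of hnRNPA1 itself, were named little more or less than other genes, 17 of 42 by ZHX1 (40.5%, background 41.0%) and 11 by hnRNPA1 (26.2%, background 32%). Their median territory was 37.9 kb, and 22 were named by neither list. Hnrnpa1 was named by neither list. Hnrnpf (2 and 1 peaks, 1.10 kb), Hnrnpll (3 and 1, 6.70 kb), Hnrnpd (3 and 2, 6.94 kb) and Ptbp2 (5 and 4, 7.38 kb) were in both without contact. Hnrnpa2b1, Hnrnph1, Hnrnpr and Syncrip, with 1 peak each, were in ZHX1 alone. The splicing factor genes Srsf1 (2), Celf1 (1) and Khdrbs1 (1) were in hnRNPA1 alone.

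Chromatin regulator genes, with a median territory of 59.1 kb, were named equally, 25 of 50 by each list and 18 by both, with 7 in each protein alone, beside 41.0% (ZHX1), 32% (hnRNPA1) and 20.8% (both) of all genes. Dnmt1 (1 and 1 peaks, 9.41 kb), Dnmt3a (3 and 1, 110 kb), Tet2 (2 and 2, 2.19 kb) and Tet3 (18.1 kb) were in both. Of all genes, 20.1% were in ZHX1 alone and 11.2% in hnRNPA1 alone. The Polycomb genes Ezh2 (3 peaks), Eed (1) and Suz12 (1), with Dnmt3b (1), were in ZHX1 alone. Ezh1, Tet1, Setdb1 and Suv39h2 were in hnRNPA1 alone. The remodeller gene Smarca5 had 2 overlapping pairs, at 1 copy in an intron and at 3 and 2 copies 15 bp from a start site.

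Pluripotency factor genes were named by ZHX1 in 10 of 20 cases and by hnRNPA1 in 8, with 6 in both and a median territory of 70.2 kb, beside the same shares of all genes. Klf4 (5 and 5 peaks, 20.2 kb), Klf5 (2 and 1, 9.03 kb), Zfp42 (2 and 1, 11.6 kb) and Dppa4 (2 and 1, 0.348 kb) had both without contact. Klf2 (1), Esrrb (3), Tfcp2l1 (5) and Dppa2 (1) were in ZHX1 alone, and Dppa5a and Tcl1 in hnRNPA1 alone. The overlapping pair was that of Sall4, whose printed stretch at 1 copy lay 38.8 kb from the nearest start site. Of the 10 hypoxia-sensing genes, 6 were named by ZHX1 and 4 by hnRNPA1, against 41.0% and 32% of all genes. Their median territory was 63.8 kb. Hif1a (2 peaks), Arnt (1) and Arnt2 (1) were in ZHX1 alone and Egln2 in hnRNPA1 alone, and Egln3 (2 and 1, 5.71 kb) and Hif1an (71.6 kb) were in both.

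All 7 genes of the Zhx family and NF-Y were named by ZHX1, as were 41.0% of all genes, most of the 7 by 1 or 2 peaks, and 2 of them also by hnRNPA1 (28.6%, all genes 32%), with a median territory of 50.4 kb. Zhx1 itself had 1 ZHX1 peak and no hnRNPA1 peak. Zhx3 (2 peaks), Homez (1) and Nfya (1) were likewise in ZHX1 alone. Zhx2 had 3 peaks of each protein, 4.82 kb apart at the nearest, and the NF-Y subunit gene Nfyb had 1 and 2, 0.553 kb apart. Of 12 Src family kinase genes, 8 were named by ZHX1 (66.7%), 6 by hnRNPA1 and 4 by both (33.3%), with a median territory of 64.6 kb and no overlapping pair. The shares of all genes were 41.0%, 32% and 20.8%. Fyn (3 peaks), Lyn (1) and Abl1 (3) were in ZHX1 alone and Lck and Csk in hnRNPA1 alone. Yes1 (2 and 1, 17.9 kb), Frk (7 and 5, 36.7 kb) and Ptk2 (1 and 3, 16.9 kb) were in both, as was Src.

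Mef2c, Src and Epas1 were also assayed by the study with ChIP-qPCR primers, and the amplicons were placed on GRCm38 to see which peaks they touch. Each primer pair matched 1 place. The amplicons are printed on the plus strand, with the primers in capitals.
Src amplicon, chr2:157418565-157418654: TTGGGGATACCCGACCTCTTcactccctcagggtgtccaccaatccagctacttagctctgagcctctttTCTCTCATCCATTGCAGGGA
Mef2c amplicon, chr13:83506948-83507025: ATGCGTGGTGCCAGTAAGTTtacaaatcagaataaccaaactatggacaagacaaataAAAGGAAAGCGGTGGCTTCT
Epas1 amplicon, chr17:86747657-86747727: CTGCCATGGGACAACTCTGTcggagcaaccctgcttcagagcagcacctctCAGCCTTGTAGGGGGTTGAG
The Src amplicon, 166 bp from the start site of this tyrosine kinase gene, lay inside an hnRNPA1 peak at line 1953 (157418389 to 157418682), and the nearest ZHX1 peak was 4.92 kb away (157413216 to 157413644). The Mef2c amplicon touched neither list, with the nearest ZHX1 peak 52.8 kb and the nearest hnRNPA1 peak 230 kb away. The Epas1 amplicon, in the neighbourhood of this hypoxia-inducible factor gene (4 peaks of each protein, 6.01 kb apart at the nearest), was 64.7 kb from a ZHX1 and 51.4 kb from an hnRNPA1 peak. None of the 3 amplicons thus fell in a position listed for both proteins, and 1 fell in a position listed for hnRNPA1. By ChIP-qPCR the study reported ZHX1 enrichment at Mef2c and Src but none at Epas1. It also reported that Zhx1 knockout impaired hnRNPA1 enrichment at Mef2c and Src, and did not at Epas1. A place outside the deposited peaks was not called by the authors, which does not say that no protein was bound there.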

How the data were processed

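Chromatin from 46C-Ctrl CP cells was precipitated with anti-ZHX1 or anti-hnRNPA1 and sequenced in paired ends, 1 library each, so all samples carry the replicate number 1. Before depositing, the authors trimmed with cutadapt 1.18, kept reads of at least 50 bases, mapped them to GRCm38 using Bowtie2 2.3.5.1, and discarded duplicates and reads mapped nowhere or to several places. BWA 0.7.12-r1039 and deepTools 3.3.0 are also named in the submitters' processing notes. The deposited lists hold chromosome, start, end and a gene name per peak, other units being absent. What called the peaks, at which threshold and with what use of input, where the names came from and what the lines are ordered by is not given in the sources used here. The depth is therefore unknown, and intervals (95% Wilson) cover counting of peaks only.

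Lists were compared by overlap of at least 1 bp in Python 3.11.15 (matplotlib 3.10.9, numba 0.67.0, SciPy 1.17.1, NumPy 2.4.6, pandas 2.3.3). The copy number of a peak is the median count of its 32-base words, on both strands, over the assembled chromosomes of GRCm38. Peaks were annotated against GENCODE M21 transcripts (promoter, within 2 kb of a start site), and gene lists were counted over 26180 curated RefSeq genes. As a reference, 52960 windows of 250 bp, every 50 kb, were measured the same way. Motifs were searched in the central 200 bases of each peak or window. Peaks with 20% or more of their 20-base words in annotated ribosomal RNA genes were listed. ChIP-qPCR primers from the study's supplementary material were matched exactly to GRCm38. The overlap and copy counts were tested on simulated data.

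The members, gene lists and tests were chosen with earlier results of these data known. Genes were named by a fixed rule. It took the genes Epas1, Src, Mef2c, Zhx1 and Hnrnpa1; the leading members of each list, in list order and at most 4 per class; the genes of the 10 widest shared positions, overall and below 2 copies; the 10 genes with the most peaks of each protein; the 5 longest runs; and up to 4 members of a family by peak number. Where other genes are named, the text says that they were chosen after their values were seen. Alternatives changed the overlap, peak width, copy number, promoter and naming definitions, left out chromosome 11, merged peaks within 10 kb, and, added after seeing the data, left out the first 500 lines. Some genes that the rule would name are not reported here.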

Additional observations from a re-analysis of the deposited data

How the results depend on the processing

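Of 27 values recomputed under the alternatives, 22 left the counting interval of the main value or, for counts of names, differed from it by over 1.5 times. The other 5 did not. The share of hnRNPA1 peaks with a ZHX1 peak (4.12%) and that of ZHX1 peaks with an hnRNPA1 peak (2.60%) were 3.37% and 2.13% when 50% of the shorter peak had to be covered, 6.61% and 4.26% for centres within 1 kb, 3.52% and 2.23% for peaks wider than the median, 1.88% and 1.20% below 2 copies in both lists, 5.69% and 3.72% after merging peaks within 10 kb, and 3.15% and 1.97% without the first 500 lines of both lists. Names in both lists (5526) fell to 2641 for wide peaks, to 2866 for genes whose body was overlapped and to 481 for overlapped promoters. The multi-copy share of hnRNPA1 peaks was 64.4% with and 22.7% without a ZHX1 peak. The former was 70.9% when 50% of the shorter peak was covered and 58.5% without the first 500 lines, and at 10 or more copies the shares were 40.6% and 16.1%. The promoter share of shared hnRNPA1 peaks (19.4%) was 25.5% below 2 copies, 11.1% within 1 kb and 7.28% for start sites of protein-coding transcripts. Each alternative's own construction changes which peaks or genes are counted. No paired analysis was possible because each list came from 1 library and no test was made. With unknown depth, positions below the authors' threshold cannot be compared.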
